A study of Mus musculus with 2 samples.

Results

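Ghrelin or peptide YY cells without glucagon were picked from single-cell RNA profiles of the wild-type mouse pancreas at stage E14.5 (embryonic day). A cell entered the gate with at least 3 raw Ghrl counts or at least 5 raw Pyy counts. It also had to have under 3 Gcg counts, under 10 counts of Ins1 and Ins2 together, under 10 of Sst, and under 15 of the acinar genes Cpa1, Ctrb1, Pnliprp1 and Clps together, in a barcode of at least 1000 counts with at most 20% mitochondrial counts. The gate held 159 of the 1609 barcodes within those depth and mitochondrial limits, 54 of 528 (10.2%, exact binomial 95% interval 7.78% to 13.1%) in library 1 and 105 of 1081 (9.71%, 8.01% to 11.6%) in library 2. These intervals treat barcodes as independent draws and cover counting error only, and the flow sort can set the shares. The counts are unique molecular identifiers (UMIs), 1 per captured RNA molecule.

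Both libraries are wild-type E14.5 pancreas, which the labels call islet; strain and sex are not given in the labels. Endocrine cells had been enriched by flow sorting for low and high Ngn3eGFP, a green fluorescent reporter of Neurog3, and encapsulated in inDrop droplets, where a DNA barcode names each cell. Whether the libraries came from separate animals, and which cell came from which sort gate, is not stated in the labels. The p-values below therefore rest on how far the differences between classes varied between 2 libraries, estimated partly across genes. That variation may be technical. The gate cells were compared with 103 Gcg cells (at least 3 Gcg counts, 38 and 65 per library), with 157 hormone-low precursors (at least 5 Chgb counts, under 3 Neurog3 counts and below every hormone limit of the gate, 65 and 92 per library), and with the 1347 other barcodes (436 and 911), which include those precursors. Median depth was 3652.5 and 3110 UMIs in gate cells, 3798.5 and 2767 in Gcg cells, 3293 and 2790.5 in precursors, and 3187.5 and 2822 in other barcodes, and 3 barcode names occurred in both libraries, 0 of them in the gate.

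Ghrelin is the appetite-stimulating hormone of the stomach, and in the embryonic pancreas it marks epsilon cells. It becomes active only when the enzyme encoded by Mboat4, ghrelin O-acyltransferase, attaches a fatty acid to it. Peptide YY (Pyy) and pancreatic polypeptide (Ppy) belong to the neuropeptide Y family, and in the mouse fetal islet Pyy is made by several endocrine cell types, glucagon cells included. All these cells descend from Neurog3-expressing progenitors, and Pax4 favours the insulin and somatostatin fates.

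The sequences that lie just upstream of the hormone genes are shown because these genes define the cells (Ghrl, Pyy), mark a subset of them (Ppy), differ between the kinds of gate cell (Gast, gastrin) or are excluded by the gate (Gcg). Each line gives the 250 bases before the outermost start of the gene, 5′ to 3′ on the gene's strand, from RefSeq on GRCm38.p6. Capitals mark TATAA, the core of the TATA box, where it lies on the gene's strand in the last 40 bases before the start.
Ghrl (chr6:113719912-113720161, minus strand): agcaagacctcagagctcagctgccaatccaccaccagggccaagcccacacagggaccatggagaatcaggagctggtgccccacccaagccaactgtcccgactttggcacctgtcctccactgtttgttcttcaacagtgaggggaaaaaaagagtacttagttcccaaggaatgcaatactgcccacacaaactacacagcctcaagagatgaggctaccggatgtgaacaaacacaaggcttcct
Pyy (chr11:102107833-102108082, minus strand): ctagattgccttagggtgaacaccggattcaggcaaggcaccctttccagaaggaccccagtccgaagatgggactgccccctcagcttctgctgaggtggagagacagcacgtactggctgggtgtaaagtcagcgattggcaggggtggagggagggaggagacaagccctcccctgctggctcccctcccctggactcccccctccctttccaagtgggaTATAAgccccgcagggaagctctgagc
Ppy (chr11:102101320-102101569, minus strand): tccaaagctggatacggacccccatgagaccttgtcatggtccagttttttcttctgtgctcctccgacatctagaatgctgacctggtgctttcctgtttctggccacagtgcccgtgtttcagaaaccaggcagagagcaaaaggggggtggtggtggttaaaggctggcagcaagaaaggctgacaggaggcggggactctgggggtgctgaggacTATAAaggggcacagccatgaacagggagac
Gast (chr11:100334157-100334406, plus strand): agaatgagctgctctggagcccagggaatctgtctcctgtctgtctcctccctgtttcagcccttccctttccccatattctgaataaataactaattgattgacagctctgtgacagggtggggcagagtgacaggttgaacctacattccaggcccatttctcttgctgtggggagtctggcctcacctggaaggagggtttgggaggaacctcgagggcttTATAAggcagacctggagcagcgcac
Gcg (chr2:62483654-62483903, minus strand): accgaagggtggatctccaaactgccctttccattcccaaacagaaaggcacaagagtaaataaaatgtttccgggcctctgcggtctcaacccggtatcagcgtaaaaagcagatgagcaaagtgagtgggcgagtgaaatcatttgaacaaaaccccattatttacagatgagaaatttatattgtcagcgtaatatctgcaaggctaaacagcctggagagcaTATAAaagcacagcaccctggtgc
TATAA was present in those last 40 bases for Pyy, Ppy, Gast and Gcg, with its first letter 27, 31, 26 and 24 bases before the start, and not for Ghrl, whose RefSeq table lists 4 starts. Of 27025 mouse promoters cut the same way, 1243 (4.60%) held it there. The homeodomain core TAAT, searched on both strands of the whole 250 bases (TAAT or ATTA), was found 2 times at Gcg, 1 time at Gast and 0 times at Ghrl, Pyy and Ppy, while 55.4% of all promoters held it. Pyy and Ppy are neighbours on chromosome 11 in the same orientation, with 5356 bases between the 2 genes in GENCODE M21. A match is a run of letters, not a bound site.

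The gate held mostly Pyy cells. Of the 159 cells, 123 had Pyy only (under 3 Ghrl UMIs; 41 in library 1 and 82 in library 2), 26 had both hormones (8 and 18) and 10 had Ghrl only (5 and 5). The 36 cells with at least 3 Ghrl UMIs are called Ghrl cells below, and the other 123 Pyy-only cells. These values chose the cells and are a description. Pyy had a median of 14 UMIs per gate cell in library 1 and 17 in library 2, with highest values of 181 and 161. Ghrl was at 0 in 113 of the 159 cells, and among the Ghrl cells it had a median of 16 and 25 UMIs and highest values of 150 and 144. The 6 and 11 gate cells with the most UMIs of a hormone carried 86.5% and 78.7% of the Ghrl UMIs of the gate, against 45.6% and 35.8% for Pyy. A cell without Ghrl could enter only with at least 5 Pyy UMIs, so the rule itself spread Pyy over most of the gate.

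Ppy, which the rule did not use, was detected in 12 of 54 gate cells in library 1 (22.2%) and 36 of 105 in library 2 (34.3%). At least 3 Ppy UMIs were present in 28 cells, and all 28 had at least 5 Pyy UMIs while 5 had at least 3 Ghrl UMIs. The 10 cells with Ghrl but fewer than 5 Pyy UMIs had 0 Ppy UMIs in both libraries, which at 16079 and 14766 UMIs in all allows up to 187 and 203 CPM (counts per 1000000 UMIs of the class). In acinar barcodes, which should lack the gene, 0 of 13 and 0 of 99 had a Ppy UMI, at median depths of 5050 and 4170 UMIs. Pyy itself was seen at 1 or more UMIs in 5 of 13 and 26 of 99 acinar barcodes, at up to 2 and 16 UMIs in a barcode, so 1 or 2 Pyy UMIs in a cell are not read as expression here. Where those UMIs came from was not tested. With the gate's minimum, 3 of 112 acinar and 1 of 65 immune barcodes passed for Ghrl or Pyy.

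**Figure D1:**
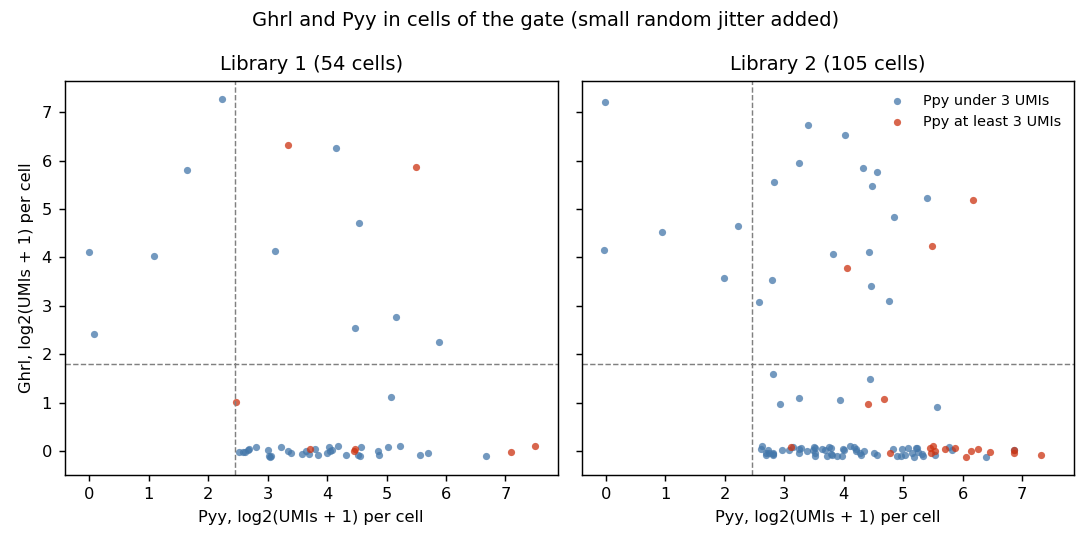
Ghrl against Pyy in each of the 54 and 105 gate cells, as log2(UMIs + 1), with red points for cells with at least 3 Ppy UMIs and dashed lines at the gate's minima. Most cells lie along the bottom with 0 Ghrl UMIs, and all 28 red points lie to the right of the Pyy minimum.

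Glucagon was low but not at 0 in every cell: 139 of the 159 gate cells had 0 Gcg UMIs and the other 20 had 1 or 2. A Gcg UMI was present in 10 of 54 and 10 of 105 gate cells (18.5% and 9.52%), against 13 of 65 and 11 of 92 precursors and 4 of 13 and 16 of 99 acinar barcodes (30.8% and 16.2%). The gate and the precursors were both cut at under 3 Gcg UMIs, so their shares are limited by the rule. Of the 103 Gcg cells, 82 met the Ghrl or Pyy minimum of the gate, 78 by Pyy and 23 by Ghrl, and Pyy stood at 6132 and 7224 CPM in Gcg cells and at 6129 and 8443 CPM in gate cells. In all 306 barcodes met that minimum; 82 were left out by Gcg and 65 by the insulin, somatostatin or acinar limits alone. Pyy was therefore common on both sides of the Gcg limit that divides the 2 classes.

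Of the genes that the rule did not use, Ppy and Peg10 were lower at the edge of the gate than well inside, and Chgb, Fev and Spp1 were higher. In the 11 and 14 cells just inside (Ghrl under 6 and Pyy under 8 UMIs), Ppy was at 144 and 137 CPM, against 677 and 989 CPM in the 43 and 91 cells well inside and 0 and 7.99 CPM in the 27 and 43 barcodes just outside (2 Ghrl UMIs or 2 to 4 Pyy UMIs, within the other limits). Peg10, an imprinted gene on the alpha-lineage list, was at 432 and 1184 CPM just inside, 1337 and 2041 CPM well inside, and 210 and 743 CPM just outside. Spp1, a gene of the ductal trunk, ran the other way: 288 and 137 CPM just inside, 103 and 45.4 CPM well inside, and 1000 and 1182 CPM just outside. Chgb was at 1643 and 1799 CPM just inside against 1038 and 1310 CPM well inside, and Fev at 663 and 387 CPM against 304 and 360 CPM. Isl1 differed little in library 1 (1009 and 998 CPM) and was lower just inside in library 2 (729 against 1363 CPM). The order for Ppy and Peg10 was the same in both libraries. These edge values are few cells each and were not tested.

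**Figure D2:**
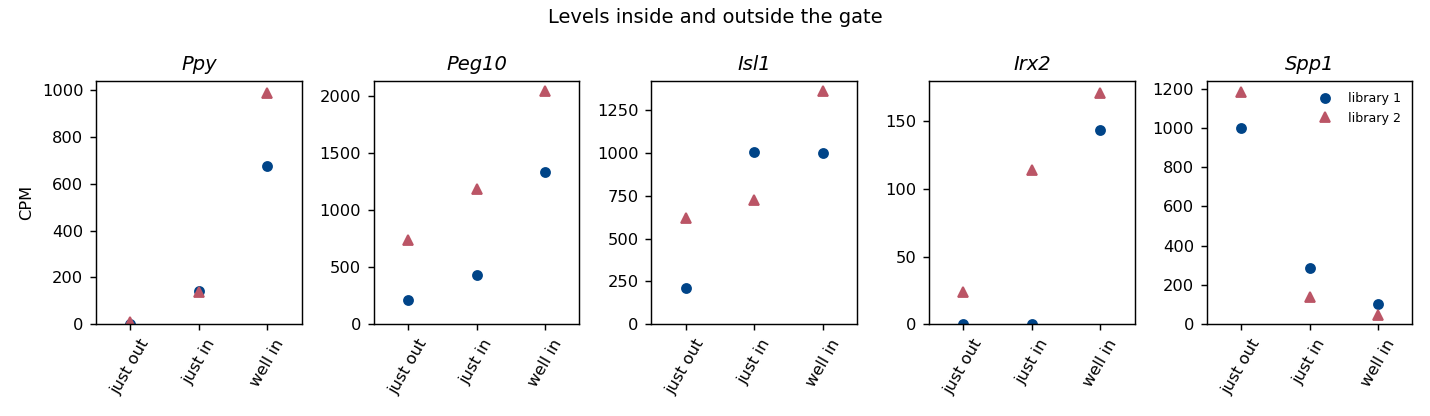
CPM of 5 genes in barcodes just outside, just inside and well inside the gate, with circles for library 1 and triangles for library 2. Ppy and Peg10 were lowest just outside and highest well inside in both libraries, and Spp1 was highest just outside.

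Against the other barcodes, the gate cells had higher levels of other hormones, of genes of the glucagon lineage and of the secretory pathway, and lower levels of proliferation and ductal trunk genes. UMIs were summed per class and library and tested with edgeR's quasi-likelihood test with library as a block, at a Benjamini-Hochberg adjusted p of 0.05 over all genes tested. The 10 gate genes were not tested. Of 7672 genes, 828 passed (10.8%), 345 higher (4.5%) and 483 lower (6.3%) in gate cells. Genes that vary with Ghrl or Pyy from cell to cell pass more easily, because the cells were cut by those counts. The other barcodes hold trunk, acinar and immune cells, and 160 insulin barcodes (46 and 114) at or over the gate's insulin limit. They hold no Gcg cells. Summed acinar markers were at 1208 and 4298 CPM against 311 and 251 CPM in gate cells. That sum includes the 4 acinar genes that the rule capped in gate cells, so the gap is partly set by the rule.

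Among hormones, Gast had 694 and 482 CPM in gate cells against 16.4 and 16.5 CPM in other barcodes, and Ppy had 588 and 876 CPM against 24.2 and 23.5 CPM. Gast was higher by 5.06 ± 0.24 (log2, SE; adjusted p = 6.49e-16 in edgeR) and Ppy by 4.92 ± 0.22 (adjusted p = 2.31e-16). For both genes the 2 sums of gate cells lay above the 2 sums of other barcodes, although single cells varied: a Gast UMI was present in 13 of 54 and 32 of 105 gate cells. Of the ghrelin maturation and epsilon list, 5 of 12 tested genes were higher and 0 lower. They were Mboat4 at 153 and 224 CPM against 13.1 and 13.7, the insulin receptor substrate Irs4 at 120 and 75.7 CPM against 11.1 and 5.95, Arg1, Hepacam2 and the fatty acid receptor Ffar4. Mboat4 was higher by 3.78 ± 0.32 (adjusted p = 4.56e-10).

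Of 19 tested alpha-lineage genes, 14 were higher and 1 (Gc) lower, with a median log2 fold of 1.90 against 0.01 over all genes tested. Irx2 was at 120 and 164 CPM against 13.1 and 10.5 CPM, and Peg10 at 1187 and 1927 CPM against 105 and 138 CPM. The collectrin gene Tmem27 was at 483 and 615 CPM against 47.1 and 62.0 CPM. For each of these genes both sums of gate cells lay above both sums of other barcodes, while an Irx2 UMI was present in only 11 of 54 and 25 of 105 gate cells. Of 7 tested genes of the gamma (PP) list, 5 were higher: Ppy, Isl1, Pax6, Meis2 and Etv1. The beta-lineage list split, with 4 of 19 higher (Iapp, Gjd2, Syt7, Vdr) and 6 lower (Nkx6-1, Slc2a2, Pax4, Nnat, Sytl4, Igf1r). The insulin barcodes sit among the other barcodes and the Gcg cells do not, so the cut of the classes bears on both the alpha and beta lists. By how much was not tested.

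Of 37 tested granin and prohormone-processing genes, 19 were higher, 1 (Sytl4) was lower and the other 17 did not pass, with a median log2 fold of 0.80 against 0.01 over all genes tested. Those that were higher included Pcsk2, a prohormone convertase, at 938 and 1312 CPM against 488 and 636 CPM, carboxypeptidase E (Cpe) at 713 and 1203 CPM against 294 and 306 CPM, and the peptide-amidating enzyme Pam at 593 and 860 CPM against 165 and 185 CPM. Cpe and Pam were higher by 1.62 ± 0.16 and 2.00 ± 0.16 (adjusted p = 6.67e-09 and 1.19e-10), where Pam shares exon positions with another gene on its strand. Mature Pyy, Ppy and gastrin all carry a C-terminal amide. Chgb and Chga did not pass here (adjusted p = 0.926 and 0.0832).

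Proliferation genes were lower: the G2/M list had 22 of 33 tested genes lower and the S-phase list 12 of 20, with 0 higher in either and median log2 folds of -1.59 and -1.27. The retinol-binding protein Rbp4, on the delta list, was higher at 1923 and 2000 CPM against 326 and 537 CPM. Trunk and duct genes were lower in 11 of 16, with Spp1 at 134 and 57.6 CPM against 969 and 1256 CPM and Hes1, a Notch target, at 9.57 and 6.06 CPM against 98.8 and 171 CPM. Metallothioneins were lower too, with Mt2 at 139 and 60.6 CPM against 1023 and 951 CPM and Mt1 at 57.4 and 42.4 CPM against 634 and 579 CPM. The genes with the lowest fitted folds included Gstm3, Cyba, Serpina6, Hes1, Fjx1 and Lgals1, several with 1 to 3 UMIs in all gate cells. Gstm3, with 1 UMI in gate cells and 298 in the others, was 36.6-fold lower with a counting interval of 6.52 to 1452.

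Against the Gcg cells fewer genes passed. Of 7672 genes, 39 passed (0.508%), 18 higher (0.235%) and 21 lower (0.274%) in gate cells, and 715 had an unadjusted p under 0.05. The cyclin-dependent kinase inhibitor Cdkn1a, the ETS factor Fev and the imprinted gene Nnat were higher in gate cells. Irx1, Ttr, Tmem27, the kinase gene Lmtk3 and the mitochondrial gene Sdhc were higher in Gcg cells. The endocrine factors Pax6, Isl1, Nkx2-2 and Meis2 did not pass against all 103 Gcg cells.

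Cdkn1a was at 842 and 869 CPM in gate cells and 144 and 148 CPM in Gcg cells, a log2 difference of 2.51 ± 0.21 (adjusted p = 4.43e-09). A gene known only by a clone name overlaps its exons on the other strand, and whether counting used strand is not given. Fev, which marks endocrine precursors and is a serotonergic factor, was at 364 and 364 CPM against 111 and 79.2 CPM, higher by 1.93 ± 0.28 (adjusted p = 0.000219). Nnat was at 579 and 545 CPM against 235 and 188 CPM, higher by 1.38 ± 0.21 (adjusted p = 0.000267). Of its 121 and 180 UMIs in gate cells, 2 and 2 came from Ghrl cells, so this level describes the Pyy-only cells. The 2 libraries gave close values for all 3 genes, and both sums of gate cells lay above both sums of Gcg cells. Of the Cdkn1a UMIs of gate cells, 1 cell held 30.1% in library 1 and 1 cell 13.6% in library 2.

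In the other direction Sdhc, a subunit of succinate dehydrogenase, was at 120 and 93.9 CPM in gate cells and 797 and 1079 CPM in Gcg cells, lower by -3.22 ± 0.23 on the log2 scale (adjusted p = 1.3e-10). Its UMIs came from 20 and 21 gate cells and 26 and 48 Gcg cells, so no single cell carried it. Lmtk3 was at 38.3 and 9.09 CPM against 588 and 277 CPM (-4.34 ± 0.39, adjusted p = 1.2e-08). Transthyretin (Ttr), a carrier protein abundant in glucagon cells, was at 694 and 930 CPM against 2573 and 2068 CPM (-1.54 ± 0.15, adjusted p = 6.81e-08). Irx1 was at 47.8 and 93.9 CPM against 261 and 233 CPM (-1.79 ± 0.35, adjusted p = 0.00936). Of 19 tested alpha-lineage genes, 4 were lower (Irx1, Ttr, Slc38a5 and Tmem27) and 0 higher, with a median of -0.72 against 0.00 over all genes. Both classes were cut by Gcg counts, so genes that vary with Gcg from cell to cell pass more easily as lower in gate cells. How much of the alpha list this sets was not tested.

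Isl1 was at 1000 and 1278 CPM in gate cells and 705 and 846 CPM in Gcg cells (0.51 ± 0.16, adjusted p = 0.202), and Pax6 at 670 and 824 CPM against 405 and 609 CPM (adjusted p = 0.292). A p over the threshold does not show that these levels are equal.

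The hormone genes Ppy and Gast, outside the rule, passed with smaller log2 folds than Cdkn1a, Fev or Nnat. Ppy was at 588 and 876 CPM against 242 and 524 CPM (0.90 ± 0.21, adjusted p = 0.0414) and Gast at 694 and 482 CPM against 235 and 307 CPM (1.03 ± 0.23, adjusted p = 0.032). Mboat4 was at 153 and 224 CPM against 52.2 and 49.5 CPM (1.87 ± 0.39, adjusted p = 0.0179), and Irs4 at 120 and 75.7 CPM against 19.6 and 4.95 CPM (3.03 ± 0.72, adjusted p = 0.0438). The Irs4 level in Gcg cells rested on 3 and 1 UMIs. The short-chain fatty acid receptor gene Ffar2 was at 172 and 167 CPM against 52.2 and 49.5 CPM (1.70 ± 0.38). Other genes that passed as higher included Lmo4 (a LIM-only cofactor), the tight-junction gene Cldn4 and Chgb. Ghrl cells held only 10 and 9 of the 238 and 454 Chgb UMIs of the gate. Iapp, Cck, Sct, Pcsk1 and Pcsk2 did not pass.

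The definition of the Gcg cells mattered. When the Gcg cells had to meet the same Ghrl or Pyy minimum and the same insulin, somatostatin and acinar limits (26 and 53 cells), 12 genes passed, 11 of them among the 39. Of the 22 named genes that had passed, 8 passed again: Cdkn1a (2.65), Fev (1.80), Nnat (1.13), Sdhc (-3.43), Lmtk3 (-4.48), Irx1 (-2.08), Ttr (-1.79) and Tmem27 (-1.05), as log2 folds. Ppy was then 0.53 (adjusted p = 0.533), Gast 0.67 (adjusted p = 0.42), Mboat4 1.97 (adjusted p = 0.0686) and Irs4 2.61 (adjusted p = 0.278). Against the other Gcg cells within those limits, the 19 that fell below the Ghrl and Pyy minima (11 in library 1 and 8 in library 2), 70 genes passed and 18 of the 39 were among them. Those Gcg cells were cut for low Ghrl and Pyy, and the median log2 fold of all genes tested was 0.29. Macrophage gene Mrc1 (-4.49, adjusted p = 1.41e-07 in edgeR) and G2/M gene Ccna2 (-3.72, adjusted p = 0.00116) were lower in gate cells. With the minimum met, their folds were -1.16 (adjusted p = 0.755) and -0.36 (adjusted p = 0.961). A Gcg UMI was present in 13 of 58 immune barcodes of library 2, at up to 17 UMIs. Whether all 19 are glucagon cells was not tested. Ppy (4.03) and Gast (4.33) passed against those 19 cells. Isl1 (2.15, adjusted p = 9.01e-06), Pax6 (3.07, adjusted p = 2.6e-06) and Meis2 (1.36, adjusted p = 0.0375) passed too, with all of these higher in gate cells. Ttr (-0.31, adjusted p = 0.769), Irx1 (-0.55, adjusted p = 0.87) and Tmem27 (-0.055, adjusted p = 0.983) did not pass. Cdkn1a, Fev, Nnat, Sdhc and Lmtk3 passed in the same direction under both definitions. Without library as a block 7 genes passed, Cdkn1a, Fev, Nnat, Sdhc, Lmtk3 and Ttr among them, while Irx1, Tmem27, Chgb, Irs4, Ppy, Gast and Mboat4 did not.

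Several genes that were lower in gate cells are markers of other cell types. The acinar gene Amy1 was at 9.57 and 6.06 CPM in gate cells, against 19.6 and 114 CPM in Gcg cells, so the gap came from library 2. The macrophage receptor Mrc1 was at 19.1 and 18.2 CPM against 45.7 and 143 CPM, and Gstm1 at 9.57 and 18.2 CPM against 39.2 and 183 CPM. Summed over 17 acinar genes, the level was 311 and 251 CPM in gate cells and 405 and 2286 CPM in Gcg cells, with Prss1 at 0 in both classes and libraries. Of these genes, 4 are those that the rule capped in gate cells. Summed over 14 immune genes it was 187 and 227 CPM against 235 and 618 CPM. In Gcg cells of library 2 a single cell held 87.0% of the Amy1 UMIs and 86.5% of the Gstm1 UMIs. The gate excluded acinar counts and the Gcg cells did not, and with the same limits on both Gstm1 was -0.91 (adjusted p = 0.85). The part of acinar or immune RNA in the other differences was not tested.

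**Figure D3:**
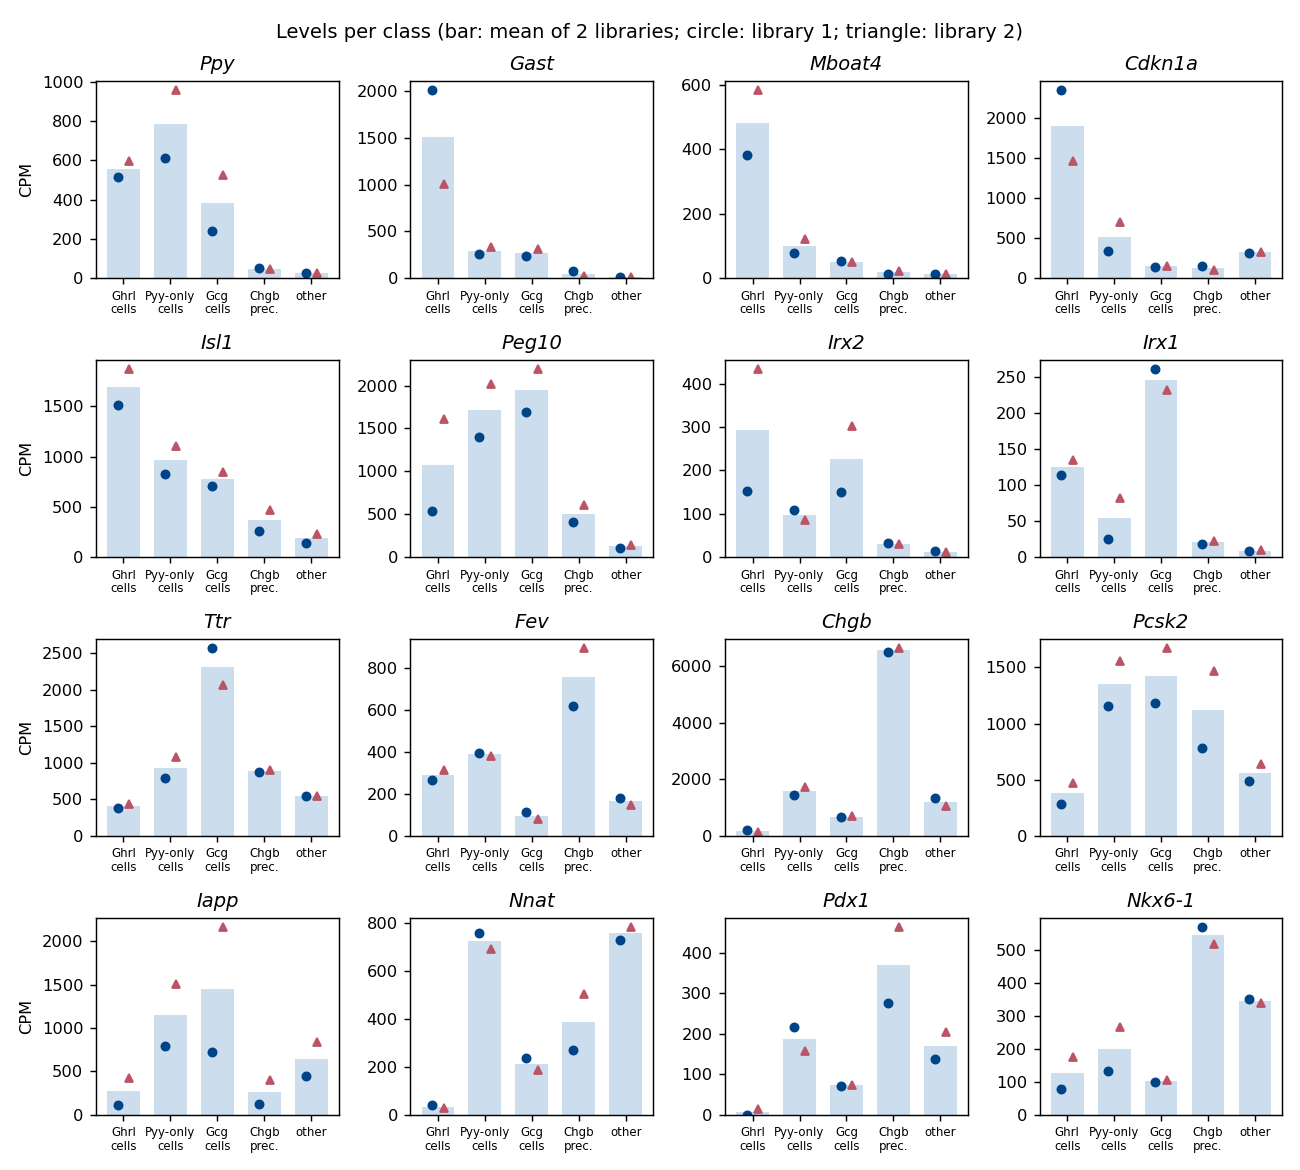
CPM of 16 genes in Ghrl cells, Pyy-only cells, Gcg cells, Chgb precursors and other barcodes, with bars at the mean of the 2 libraries and a point for each. Cdkn1a, Mboat4 and Gast stand highest in Ghrl cells, Ttr and Irx1 in Gcg cells, and Fev and Nkx6-1 in precursors, while Chgb is high in precursors because it defined them.

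The gate cells were also set against the precursors, endocrine cells that carry Chgb but no hormone above the limits. Of 7993 genes, 71 passed (0.888%), 52 higher (0.651%) and 19 lower (0.238%) in gate cells, with the same sign in both libraries for all 71. Higher were hormone and ghrelin-processing genes, alpha-lineage factors and Cdkn1a. Lower were Pax4, Nkx6-1, Pdx1, Fev and Chga. Chgb and Neurog3, which define the precursors, were not tested. The precursors were cut below the Ghrl and Pyy minima that gate cells had to meet. Genes that vary with Ghrl or Pyy from cell to cell, other hormone genes included, therefore pass more easily as higher in gate cells.

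Ppy was at 588 and 876 CPM in gate cells and 49.8 and 44.1 CPM in precursors (3.99 ± 0.30, adjusted p = 1.17e-11), and Gast at 694 and 482 CPM against 72.5 and 18.4 CPM (3.75 ± 0.40, adjusted p = 2.19e-08). Mboat4 was at 153 and 224 CPM against 13.6 and 22.1 CPM (3.39 ± 0.45, adjusted p = 4.38e-06). The islet amyloid polypeptide gene Iapp was at 627 and 1269 CPM against 118 and 405 CPM (1.91 ± 0.20), although its level differed between libraries by more than 2-fold in both classes. Gip, an incretin gene, was at 153 and 9.09 CPM in gate cells against 0 and 7.36 CPM in precursors and did not pass (adjusted p = 0.0523). Its 32 UMIs in library 1 came from 10 gate cells, and library 2 held 3 UMIs.

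Of the alpha-lineage list, 5 of 18 tested genes were higher and 0 lower. Irx2 was at 120 and 164 CPM against 31.7 and 29.4 CPM (2.23 ± 0.43), and Peg10 at 1187 and 1927 CPM against 408 and 603 CPM (1.63 ± 0.16). Tmem27 and Lrpprc passed too. Sgce, the neighbour of Peg10 in the same imprinted cluster, was at 95.7 and 139 CPM against 27.2 and 11 CPM (2.71 ± 0.51, adjusted p = 0.00169). Isl1, a LIM-homeodomain factor of all hormone cells, was at 1000 and 1278 CPM against 263 and 471 CPM (1.66 ± 0.18). Meis2 was higher by 0.77 ± 0.18 (adjusted p = 0.0234), while Pax6 and Nkx2-2 did not pass.

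Of 22 tested beta-lineage genes, 4 were lower (Nkx6-1, Pdx1, Pax4, Gng12), 1 was higher (Iapp) and 17 did not pass, with a median log2 fold of -0.12. Pax4 was at 19.1 and 24.2 CPM in gate cells and 131 and 84.6 CPM in precursors (-2.21 ± 0.49, adjusted p = 0.0126). Nkx6-1 was at 120 and 245 CPM against 571 and 519 CPM (-1.51 ± 0.23, adjusted p = 3.82e-05). Chromogranin A (Chga) was at 488 and 633 CPM against 992 and 1589 CPM (-1.18 ± 0.16, adjusted p = 4.38e-06), and the precursors had been picked for its relative Chgb. Secretogranin II (Scg2) was higher instead, at 163 and 267 CPM against 18.1 and 55.2 CPM (2.53 ± 0.37). Gcg cells had Scg2 too, 24 and 48 UMIs among 153123 and 202112, beside 34 and 88 among 209008 and 330081 in gate cells. Of 38 tested granin and processing genes, 2 were higher (Scg2, Pam) and 1 (Chga) lower.

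Cdkn1a was at 842 and 869 CPM against 145 and 103 CPM in precursors (2.82 ± 0.22, adjusted p = 1.96e-11), while 0 of 20 S-phase and 0 of 34 G2/M genes passed in either direction. At an unadjusted p the whole fit had 729 genes under 0.05. The ER chaperone genes Hspa5, Calr and Sdf2l1 were higher, 3 of 34 tested in their list, with 0 lower. Hoxd3 had 60 and 131 UMIs in gate cells and 2 and 0 in precursors, a ratio of 87.3 with a counting interval of 23.8 to 726. In Gcg cells Hoxd3 UMIs were found in 26 of 38 and 29 of 65 cells, and its exons overlap those of Hoxd4 and of antisense genes, so the transcript counted is uncertain. The ubiquinone enzyme gene Coq3 was at 201 and 158 CPM against 13.6 and 11 CPM (3.84 ± 0.49, adjusted p = 1.27e-06). Gcg cells had 29 and 30 Coq3 UMIs among 153123 and 202112 UMIs in all. Gate cells had 42 and 52 among 209008 and 330081, so Coq3 is not particular to them.

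**Figure D4:**
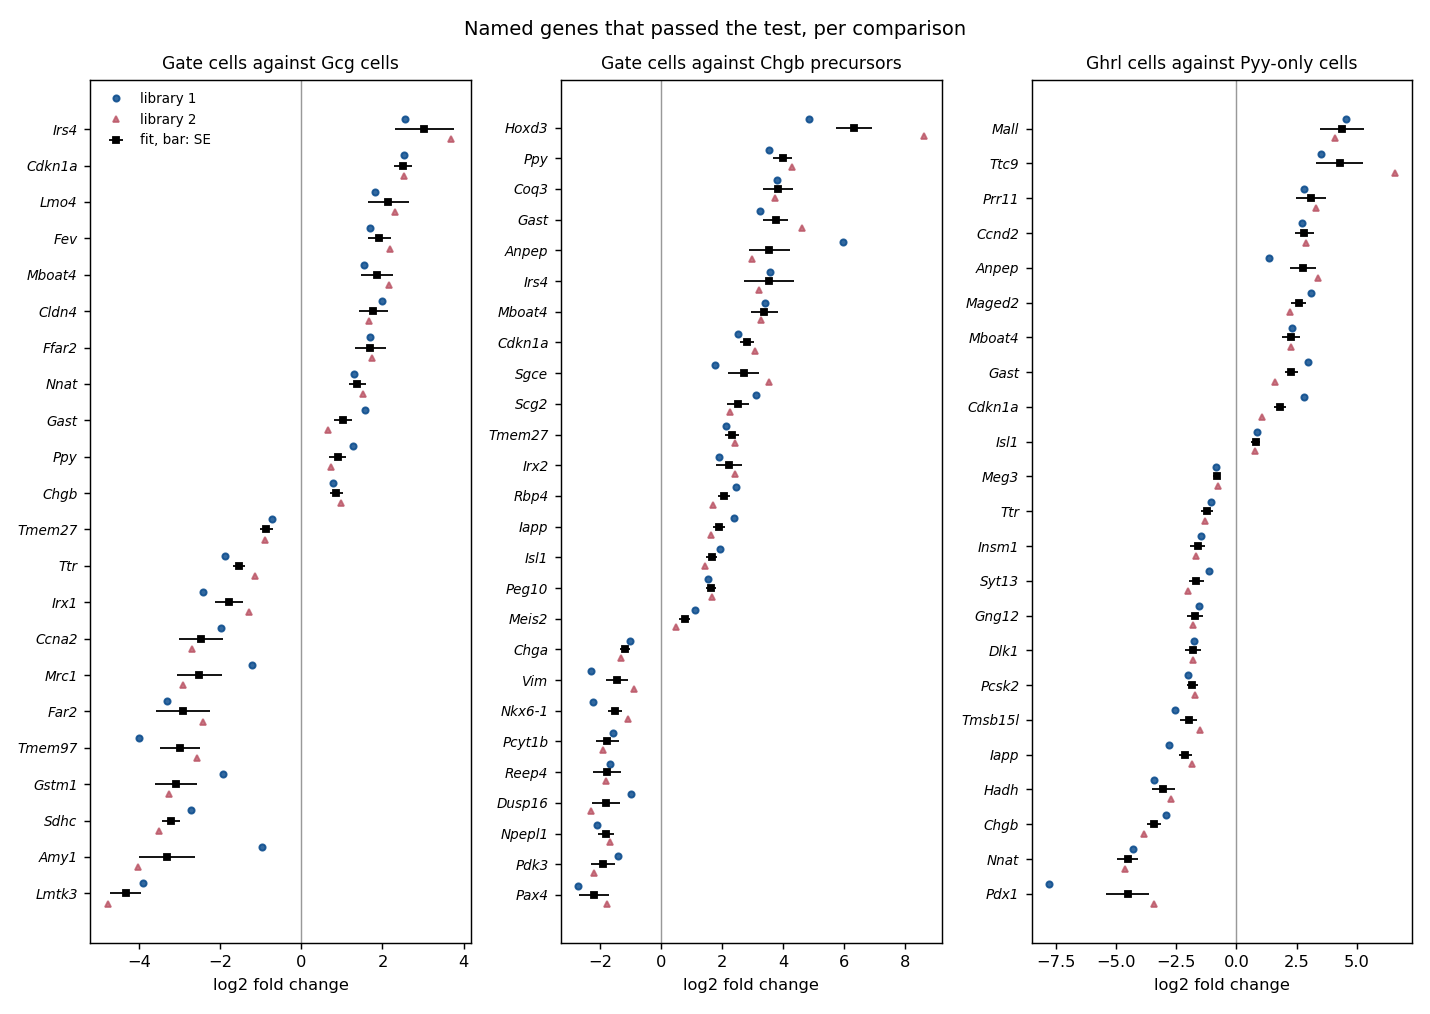
Log2 fold changes of the named genes that passed, for gate cells against Gcg cells (left), against Chgb precursors (middle), and Ghrl cells against Pyy-only cells (right), with squares and bars for the fit and its SE, circles for library 1 and triangles for library 2. Cdkn1a lies to the right in all 3 panels. In the left panel many genes differ between libraries by more than their SE, among them Amy1, Mrc1, Ttr, Sdhc, Lmtk3, Irx1 and Gast.

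Within the gate, the 36 Ghrl cells (13 and 23) and the 123 Pyy-only cells (41 and 82) differed from each other. The planned comparison of Ghrl-only with Pyy-only cells had 5 Ghrl-only cells per library and was not tested; this split was chosen after those counts were seen. Of 6021 genes, 26 passed (0.432%), 13 higher (0.216%) and 13 lower (0.216%) in Ghrl cells, with the same sign in both libraries for all 26, and 540 had an unadjusted p under 0.05. Ghrl cells had more Mboat4, Gast, Cdkn1a, Ccnd2, Anpep and Isl1. They had less Chgb, Nnat, Pdx1, Iapp, Pcsk2 and Insm1. The split is by Ghrl counts, so genes that vary with Ghrl from cell to cell pass more easily. Depth was alike, with medians of 3883 and 3395 UMIs in Ghrl cells and 3591 and 3073.5 in Pyy-only cells, and Scrublet called 2 of the 13 Ghrl cells of library 1 as doublets. Markers of other cell types moved with this split: 12 endocrine progenitor markers summed to 1872 and 1951 CPM in Ghrl cells and 1104 and 1054 CPM in Pyy-only cells, all 12 detected in each. Of 10 tested, 0 passed and 5 were higher at an unadjusted p under 0.05. Trunk and duct markers summed to 2388 and 2926 CPM against 1851 and 1791 CPM, with Krt19, Anxa2, Prom1, Clu and Onecut1 at 0 in Ghrl cells of library 1, and 0 of 16 tested passed. The part of these markers in the differences below was not tested.

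Mboat4 was at 382 and 582 CPM in Ghrl cells and 76.6 and 121 CPM in Pyy-only cells (2.26 ± 0.39, adjusted p = 0.00146). A Mboat4 UMI was present in 7 of 13 and 12 of 23 Ghrl cells, against 6 of 41 and 14 of 82 Pyy-only cells and 1 of 13 and 3 of 99 acinar barcodes. Gast was at 2006 and 1002 CPM against 255 and 332 CPM (2.26 ± 0.27, adjusted p = 4.81e-06), but its UMIs came from 3 and 8 Ghrl cells, and 1 cell held 64.9% of them in library 2. All of these were cells with both hormones, since the Ghrl-only cells had 0 Gast UMIs. Ppy was at 516 and 596 CPM against 613 and 956 CPM and did not pass (-0.51 ± 0.26, adjusted p = 0.579). In Ghrl cells its UMIs came from 3 and 5 cells, and 1 cell held 66.7% of them in library 1 and 1 cell 79.5% in library 2. Irs4 was at 420 and 108 CPM against 19.1 and 66.3 CPM and did not pass either (2.23 ± 0.69, adjusted p = 0.221), and in library 1 its 22 UMIs lay in 7 cells.

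Of 10 tested genes on the list named cell-cycle exit, 2 were higher and 0 lower: the inhibitor gene Cdkn1a, and Ccnd2, which encodes a D-type cyclin that drives cells into S phase. Cdkn1a was at 2350 and 1463 CPM in Ghrl cells and 338 and 699 CPM in Pyy-only cells (1.81 ± 0.25, adjusted p = 3.93e-05), and was detected in 11 of 13 and 18 of 23 Ghrl cells. Of its UMIs in Ghrl cells, 1 cell held 43.1% in library 1 and 1 cell 28.7% in library 2. Ccnd2 was at 554 and 352 CPM against 83.0 and 46.8 CPM (2.81 ± 0.39, adjusted p = 3.93e-05). No gene of the S-phase list (16 tested) or the G2/M list (24 tested) passed. The melanoma antigen family gene Maged2 was at 936 and 745 CPM against 109 and 160 CPM (2.58 ± 0.31, adjusted p = 4.81e-06). Aminopeptidase N (Anpep) was at 115 and 420 CPM against 44.7 and 39.0 CPM (2.75 ± 0.55). Isl1 was at 1509 and 1869 CPM against 830 and 1108 CPM (0.79 ± 0.19, adjusted p = 0.0496) and passed narrowly. Mall, Ttc9 and Prr11 rested on few molecules, Mall with 20 UMIs in Ghrl cells and 3 in Pyy-only cells, a ratio of 21.8 with a counting interval of 6.47 to 115.

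Genes lower in Ghrl cells included 5 of 19 tested beta-lineage genes (Pdx1, Nnat, Iapp, Gng12, Dlk1) and 3 of 33 granin and processing genes (Chgb, Pcsk2, Syt13), with 0 higher in either list. The list medians were -1.07 and -0.15, against -0.04 over all genes tested. Chgb was at 191 and 122 CPM in Ghrl cells and 1455 and 1737 CPM in Pyy-only cells (-3.42 ± 0.28, adjusted p = 3.57e-09). Nnat was at 38.2 and 27.1 CPM against 760 and 695 CPM (-4.51 ± 0.43, adjusted p = 7.45e-08), on 4 UMIs in all Ghrl cells. Pcsk2 was at 287 and 474 CPM against 1155 and 1553 CPM (-1.83 ± 0.22, adjusted p = 4.81e-06), while Pcsk1, Pam, Cpe and Chga did not pass. Pdx1, the pancreatic homeodomain factor, had 1 UMI in the Ghrl cells and 74 in the Pyy-only cells, a ratio of 22.6 with a counting interval of 3.93 to 905. Iapp was at 115 and 420 CPM against 798 and 1514 CPM (-2.12 ± 0.27). The zinc-finger factor Insm1 was at 172 and 217 CPM against 472 and 702 CPM (-1.61 ± 0.32, adjusted p = 0.00768).

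Genes of the imprinted list were lower in 3 of 22 cases: Nnat, Dlk1 at 172 and 135 CPM against 581 and 472 CPM (-1.81 ± 0.34), and its neighbour on the same cluster, the noncoding Meg3, at 1605 and 1924 CPM against 2917 and 3262 CPM (-0.82 ± 0.15, adjusted p = 0.0052). Meg3 shares exon positions with another gene. Hadh, a mitochondrial enzyme of fatty acid oxidation, was at 38.2 and 54.2 CPM against 415 and 367 CPM (-3.04 ± 0.48, adjusted p = 0.000388). Ttr was at 382 and 433 CPM against 798 and 1073 CPM (-1.21 ± 0.24). Irx1, Irx2, Pax6, Nkx2-2 and Meis2 did not pass. Pax4 had 0 UMIs in Ghrl cells of both libraries and 4 and 8 in Pyy-only cells, and at these depths 0 UMIs allow up to 57.3 and 40.6 CPM, above the level in Pyy-only cells.

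Set against the Gcg cells on their own, in the same fit, the Pyy-only cells differed in 13 of 6021 genes (0.216%), 5 higher (0.083%) and 8 lower (0.133%). Higher genes included Cdkn1a (1.82 ± 0.30, adjusted p = 0.00125), Fev (2.00 ± 0.31, adjusted p = 0.000345), Nnat (1.74 ± 0.23) and Chgb (1.19 ± 0.18). Lower genes included Sdhc (-3.08 ± 0.27), Lmtk3 (-4.24 ± 0.45), Ttr (-1.34 ± 0.17) and Irx1 (-2.15 ± 0.43, adjusted p = 0.011). Gast (0.08 ± 0.29, adjusted p = 0.977) and Mboat4 (0.94 ± 0.48, adjusted p = 0.671) did not pass there. This comparison and that of Ghrl with Pyy-only cells share the Pyy-only cells, so their values stand side by side and no overlap between them is read. The Pyy-only and Gcg cells were also cut by Gcg counts, which bears on genes that vary with Gcg.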

How the data were processed

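Raw UMI counts per gene and barcode, as deposited by the authors, were used: 25507 gene symbols in 535 barcodes of library 1 and 1100 of library 2. Cells had been enriched by their Ngn3eGFP signal, encapsulated with inDrop and amplified as in CEL-Seq, per the labels' protocols. The genome was GRCm38 per the submitters' processing notes, and what aligned and counted the reads, with which annotation and strand setting, is not given in the sources used here.

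UMIs were summed per class and library (209008 and 330081 UMIs in gate cells, 153123 and 202112 in Gcg cells) and tested in edgeR 4.0.16 under R 4.3.3 (glmQLFit, glmQLFTest), scaled by TMM and filtered with filterByExpr, in a model of class and library. The fits held 6 sums (3 classes, 2 residual degrees of freedom), 10 sums (with insulin cells and precursors apart, 4) and 8 sums (with Ghrl and Pyy-only cells apart, 3). Library is a block because both classes of each comparison come from the same libraries. The SE is the absolute log2 fold over the square root of F. Levels are CPM on plain sums. The 10 gate genes were never tested. The edgeR fits were tried on simulated sums with known changes. Of 2-fold changes they recovered 20% for gate against Gcg cells, 25.8% against precursors and 7.69% for Ghrl against Pyy-only cells. Of 4-fold changes they recovered 75.3%, 84.5% and 58.9%. A gene that did not pass may therefore still differ.

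Per comparison, the named genes are the 8 largest rises and 8 largest falls among genes that passed with the same sign in both libraries and had at least 50 CPM in the higher class, the 14 genes of the lists that had the lowest adjusted p, with up to 3 from a list, hormone genes with at least 20 CPM in gate cells, and a fixed set of endocrine genes. The rule passed over Gm, Rik, mt-, Rpl and Rps symbols, and some genes it picked are not reported here, though counts over all genes and lists include them. Other genes named as examples of a list were chosen with their values in view. The members and the 28 lists were chosen with earlier results of these data known. Doublets were called with Scrublet in scanpy 1.11.5 and kept. Alternatives were RLE scaling, DESeq2 1.42.0, no filter, no block, other depth and gate limits, thinning to 1000 UMIs, doublet removal, and other Gcg and precursor definitions. Overlapping exons were read from GENCODE M21, which held 95.4% of the symbols; levels of Amy1, Hoxd3, Meg3, Pam, Spp1 and Tmsb15l (same strand) and of Ccna2, Ccnd2, Cdkn1a, Far2, Ghrl, Gng12, Irs4, Lmtk3, Mboat4, Mt2, Nkx2-2, Nnat, Pcsk2 and Sox4 (other strand) are uncertain for this reason.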

Additional observations from a re-analysis of the deposited data

How the results depend on the processing

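The number of genes that passed depended on the test and on the classes. Against Gcg cells, 39 became 15 with DESeq2, 7 with no replicate block, 10 with each barcode thinned to 1000 UMIs, 20 with a stricter gate (Ghrl at least 6 or Pyy at least 10), 13 with Gcg cells within the other limits of the gate, 12 with those that also met its Ghrl or Pyy minimum, and 70 with those that did not (19 cells, where the median log2 fold of all genes shifted to 0.29). Against other barcodes, 828 became 302 with DESeq2, 551 with no replicate block and 351 with thinning. Against precursors, 71 became 30 with DESeq2, 34 with no replicate block and 23 with thinning. Of the 26 named genes that had passed there, 17, 20 and 14 passed again under these settings. Those lost included Gast, Pax4 and Meis2 with DESeq2, and Iapp and Meis2 with no block. With thinning, Mboat4, Irx2, Pax4, Meis2 and Sgce were among those that did not pass or could not be tested. Between Ghrl and Pyy-only cells, 26 became 62 with no filter on low counts (median log2 fold -0.30), 10 with thinning and 19 with no replicate block. Thinning also left fewer genes to test (1297 to 2619). DESeq2 gave no adjusted p for 4468 of 7672 genes against Gcg cells and for 2085 of 7672 against other barcodes. The other causes were not tested. Gstm1, called against Gcg cells, turned to 0.34 with Gcg cells within the other limits that also met the Ghrl or Pyy minimum, and did not pass. The 33 other log2 folds that changed sign passed neither as reported nor under the alternative. Against Gcg cells below that minimum they were Irx2 (2.27), Cck (8.01), Etv1 (1.17), Iapp (0.96), Pcsk2 (0.89), Sct (0.87) and Pax4 (-0.32), and against those that met it Meis2 (-0.048). Sct against all Gcg cells turned to 0.042 with no filter, 0.024 without doublets, 0.45 at 2000 UMIs or more and 0.23 with the stricter gate. Against other barcodes Nkx2-2 turned to -0.035 with no filter, -0.011 without doublets, -0.13 with thinning and -0.10 with the stricter gate, and Chgb to -0.054 with no filter, -0.15 with the stricter gate and -0.043 with gate cells at 0 Gcg UMIs. Against precursors Pcsk1 turned to 0.0010 and Sct to 0.73 without doublets, Pax6 to 0.013 and Pcsk2 to -0.016 at 2000 UMIs, Pax6 to 0.014, Pcsk1 to 0.14 and Pcsk2 to -0.13 with thinning, and Pcsk2 to -0.022 with gate cells at 0 Gcg UMIs. Between Ghrl and Pyy-only cells Etv1 turned to -0.058 and Chga to -0.13 with no filter, Pax6 to 0.0030 without doublets, Nkx2-2 to 0.016 at 2000 UMIs and 0.056 with thinning, and Irx1 to -0.0062 with thinning. With the stricter gate the gate cells made up 7.58% and 7.86% of the 2 libraries. Of 1449 log2 folds of named genes under these alternatives, 1255 kept their direction and side of the threshold, 153 lost the threshold, 7 gained it and 34 changed sign. Of 280 single-library folds, 235 stayed within 1 SD of the fitted fold (12 of them with the other sign) and 45 lay farther from it. That SD is of the gene's own 2 single-library folds, so it widens as the libraries differ. Most folds lie within it by construction, and the count is no measure of stability. Leaving out a library leaves no residual degrees of freedom, so single-library folds are values with no test. Depth limits what can be seen in the 13 and 23 Ghrl cells, where 0 UMIs allow up to 57.3 and 40.6 CPM.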

Other observations

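Some metabolic, excitability and imprinted genes differed between the gate cells and the other barcodes, in the same edgeR fit in which 10.8% of all genes passed. Of 21 tested imprinted genes, 10 were higher in gate cells and 3 (Igf2, Nnat, Mest) lower. Gnas, which encodes the stimulatory G protein subunit, was at 6172 and 6317 CPM against 2929 and 3023 CPM, and Igf2, the fetal growth factor gene, at 182 and 87.9 CPM against 518 and 663 CPM. Of 23 tested ion channel genes, 5 were higher and 1 (Ryr2) lower; the potassium channel subunit gene Abcc8 was at 297 and 391 CPM against 80.4 and 114 CPM. Against Gcg cells 1 of 21 imprinted (Nnat), 0 of 23 ion channel and 0 of 13 glycolysis genes passed, and against precursors 2 of 21 (Peg10, Sgce), 0 of 24 and 0 of 16.

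Of 13 tested glucose transport and glycolysis genes 4 were lower, and of 30 lipid genes 6, with 0 higher in either list. Lactate dehydrogenase A (Ldha) was at 23.9 and 18.2 CPM in gate cells and 122 and 158 CPM in other barcodes. The same gene was at 26.1 and 14.8 CPM in Gcg cells and 13.6 and 14.7 CPM in precursors. Of 20 immediate-early and heat shock genes 7 were lower (Fos, Fosb, Fosl2, Jun, Atf3, Ier2, Nr4a1) and 2 higher (Hsp90aa1, Hsph1). Against Gcg cells 1 of those 20 passed, Jund, which was higher, and against precursors 0 of 21 passed.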
